A study of Mus musculus with 10 samples.

Results

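Alternative activation is the state that macrophages enter under the cytokines IL-4 and IL-13, and 7 genes that mark it or its receptor were followed here through the antigen-presenting cells of the mammary gland. They were chosen by name: Retnla, Chil3, Arg1, Mrc1, Mgl2, Clec10a and Il4ra, which are 7 of the 27179 genes in the count table. Of these, 6 passed the filter on low counts and were tested among 15681 genes, and Chil3 did not pass it. All mice were adult virgin C57BL/6 females, and the RNA came from freshly sorted mammary gland cells. Stromal macrophages, ductal macrophages, CD11b+ dendritic cells, CD11b-CD103+ dendritic cells (here CD103+) and CD11b-CD103- dendritic cells (here CD103-) were each sequenced in 2 biological replicates. No treatment, transgene or mutation is given for any group. Whether 1 mouse or pooled mice gave each library is not stated in the labels.

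IL-4 and IL-13 bind receptors that share the IL-4 receptor alpha chain, encoded by Il4ra. Janus kinases on the receptor chains then phosphorylate STAT6, which enters the nucleus and switches on target genes. In mouse macrophages the classical targets are Retnla, which encodes the secreted resistin-like molecule RELM-alpha, Chil3, which encodes the chitinase-like lectin Ym1, and Arg1, which encodes the arginine-degrading enzyme arginase 1. Mrc1 encodes the mannose receptor CD206, and Mgl2 and Clec10a encode the galactose-type lectins CD301b and CD301a. All 3 lectins bind sugars on glycoproteins and are also found on resident macrophages and on some dendritic cells.

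The upstream sequence of Retnla is shown because this gene carried the widest range of levels among the 7, that of Chil3 because it is a textbook partner of Retnla but had almost no counts, and that of Mrc1 because it shared the high populations of Retnla. Each line gives the 250 bases before the RefSeq start site in GRCm38.p6, read along the gene's strand. They lie at chr16:48842359-48842608 (plus strand) for Retnla, chr3:106167565-106167814 (minus strand) for Chil3 and chr2:14229164-14229413 (plus strand) for Mrc1. Capitals mark matches to TTC and GAA with 4 bases between them, to the same pair with 3 bases between them (TTCNNNGAA) and to TTGCNNAA.
Retnla: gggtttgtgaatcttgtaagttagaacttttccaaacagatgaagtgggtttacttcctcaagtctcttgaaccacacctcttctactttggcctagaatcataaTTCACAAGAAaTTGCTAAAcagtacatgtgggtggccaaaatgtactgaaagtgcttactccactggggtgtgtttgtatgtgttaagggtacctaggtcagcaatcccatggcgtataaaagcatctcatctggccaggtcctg
Chil3: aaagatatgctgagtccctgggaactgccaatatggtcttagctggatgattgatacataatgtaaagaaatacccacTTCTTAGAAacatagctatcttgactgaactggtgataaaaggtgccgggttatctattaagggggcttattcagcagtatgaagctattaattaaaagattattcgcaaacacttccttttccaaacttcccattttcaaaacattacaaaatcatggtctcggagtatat
Mrc1: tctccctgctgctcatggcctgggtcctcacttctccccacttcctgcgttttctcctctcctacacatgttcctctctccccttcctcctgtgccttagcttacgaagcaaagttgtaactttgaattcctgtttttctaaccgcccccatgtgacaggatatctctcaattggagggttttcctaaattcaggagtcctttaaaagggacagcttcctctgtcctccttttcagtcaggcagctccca

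RefSeq windows of 300 bases (250 before and 50 after the start site) were at hand for 5 of the 7 genes, namely Retnla, Chil3, Mrc1, Mgl2 and Il4ra, and were searched on both strands. The Mgl2 window runs from 70130107 to 70130406 and the annotated gene starts at 70130125, so most of this window lies inside the gene. Absence of a match there does not cover the bases upstream of the annotated gene. The STAT6-type palindrome, TTC and GAA with any 4 bases between them, was found in the Retnla window alone among these 5, as TTCACAAGAA with its first base at position -145 from the start site. It was present in 6.95% of all 32851 RefSeq windows of this length. TTCNNNGAA, with a spacer of 3 bases, was found only in the Chil3 window, as TTCTTAGAA at position -172, and was present in 8.3% of all windows. TTGCNNAA, a C/EBP-type match, stood at position -134 in Retnla and nowhere else among the 5, against 10.8% of all windows. GAGGAAGT, a PU.1-type match, lay on the minus strand of the Retnla window, where it reads ACTTCCTC from position -198, and was present in 3.2% of all windows. None of the 4 patterns overlapped another. A match is a description of the letters in a window, and the study measured no factor binding.

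Levels below are in CPM, that is, counts scaled to the TMM-normalized library total of the tested genes. Differences are log2 fold changes with their standard error (SE). The word called is used where the edgeR quasi-likelihood p, adjusted by Benjamini-Hochberg over all tested genes, was under 0.05. Library totals ran from 5636092 to 23093742 counts, and 3 counts corresponded to 0.119 to 0.683 CPM. Mitochondrial genes took 24.8% and 23.1% of the counts of the stromal macrophage libraries, 0.631% and 0.891% of those of ductal macrophages and 1.88% to 6.29% in the dendritic cells. Their part in the results was not tested beyond the fit without mitochondrial genes, in which all 38 calls of these genes were kept. The 8 macrophage markers summed to 14200 to 15700 CPM in ductal macrophages, 4770 to 6650 CPM in stromal macrophages, 1590 CPM in both CD11b+ libraries and 216 to 327 CPM in the CD103+ and CD103- cells. Single markers were less clear-cut: Csf1r (614 and 359 CPM) and Adgre1 (386 and 231 CPM) of stromal macrophages overlapped the CD11b+ dendritic cells. The 7 dendritic cell markers summed to 801 to 1110 CPM in ductal macrophages, against 273 to 466 CPM in the CD11b+ dendritic cells. Ductal macrophages had the highest Itgax (847 and 610 CPM, against 134 and 77.6 CPM in the CD11b+ cells). Means of Dpp4 (143 against 88.7 CPM) and Ccr7 (82.2 against 120 CPM) in the same comparison were not called different. Flt3 (1.7 against 17.5 CPM), Zbtb46 (1.74 against 14.1 CPM), Kmo (0.0946 against 16.6 CPM) and Btla (0.189 against 6.78 CPM) were called lower in ductal macrophages. The CD11b+ dendritic cells expressed Itgam (CD11b) at 701 and 556 CPM and had little Fcgr1 (2.54 and 2.69 CPM), but their Flt3, a defining dendritic cell gene, was at 16.8 and 18.1 CPM against 314 to 520 CPM in the CD103+ and CD103- cells, beside Csf1r at 551 and 566 CPM and Adgre1 at 331 and 253 CPM. The 6 cDC2 (CD11b+ type) markers, Itgam included, summed to 1720 to 2350 CPM in the CD11b+ cells. That sum was 1050 to 1410 CPM in ductal and 442 to 605 CPM in stromal macrophages, and 80.7 to 118 CPM elsewhere. Against ductal macrophages, Cd209a (981 against 0.284 CPM), Irf4 (72.3 against 4.95 CPM) and Itgam were called higher. Sirpa (224 against 666 CPM) and Cd300a (130 against 547 CPM) were called lower, and Clec4a4 was not called.

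Of the 7 genes, Retnla, Mrc1, Mgl2 and Clec10a were high in stromal macrophages and in CD11b+ dendritic cells and lower in the other 3 populations, among which Mrc1, Mgl2 and Clec10a were highest in ductal macrophages. Il4ra ran in another order, with its highest level in ductal macrophages and its lowest in stromal macrophages. Arg1 and Chil3 were scarce in every population. In these bulk samples, fewer cells of a type that expresses a gene and less of its RNA per cell cannot be told apart.

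**Figure D1:**
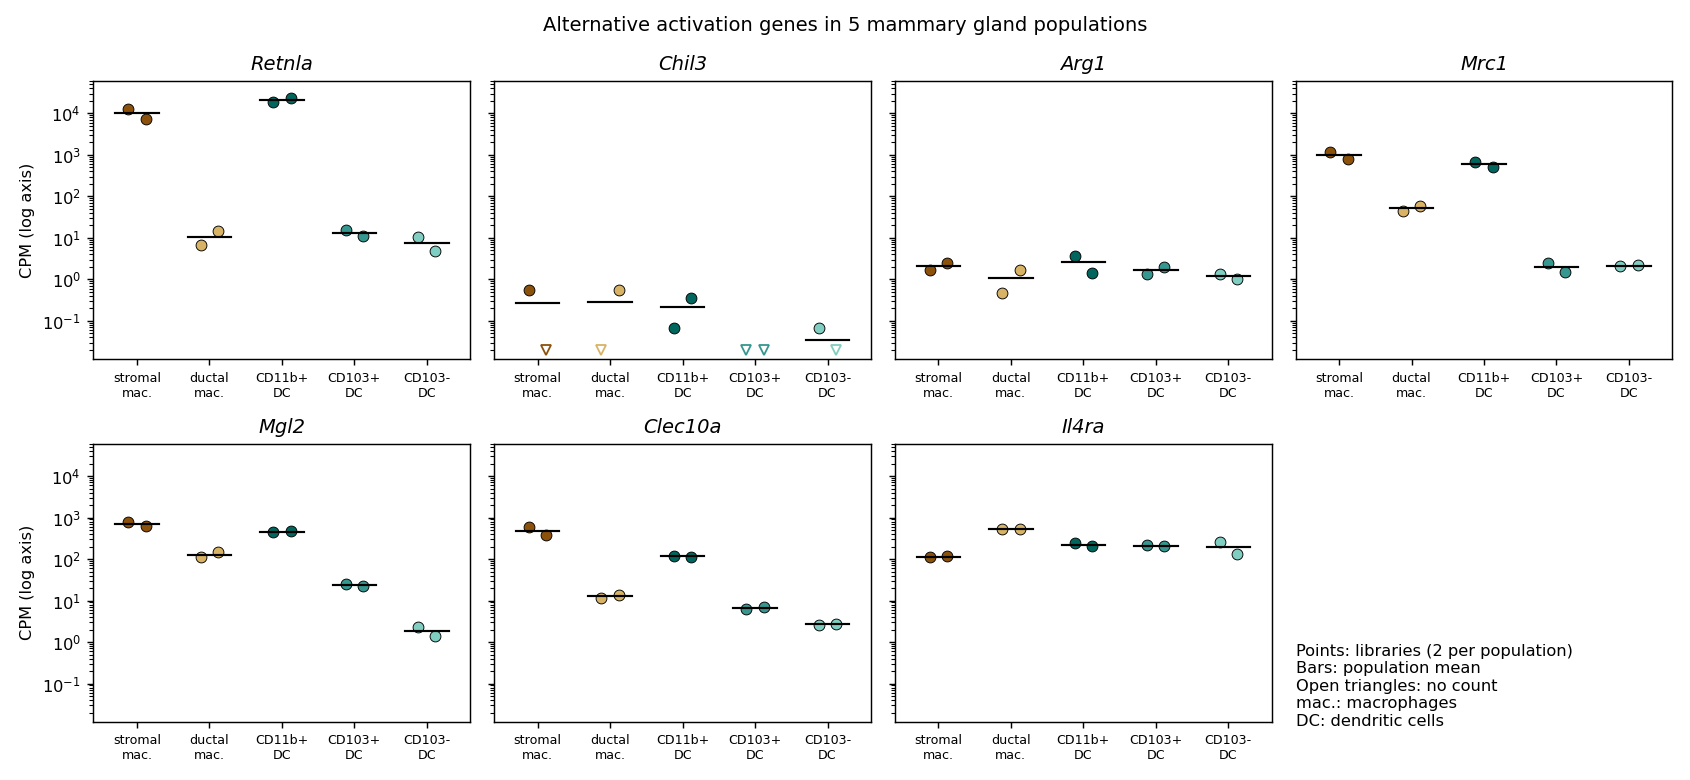
CPM (log axis) of the 7 genes in each of the 10 libraries, with points for libraries, bars for population means and open triangles for libraries with no count. Retnla, Mrc1, Mgl2 and Clec10a are highest in stromal macrophages and CD11b+ dendritic cells, Il4ra is highest in ductal macrophages, and Arg1 and Chil3 stay near the bottom of the axis.

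Retnla (gene ID 57262, chromosome 16, 48842609 to 48844461, GRCm38.p6, protein coding) had the widest span. Its level was 18700 and 24000 CPM in the CD11b+ dendritic cells (mean 21400 ± 3770, SD, n = 2) and 12400 and 7470 CPM in stromal macrophages (9930 ± 3470, SD, n = 2). In ductal macrophages it was 6.61 and 14.9 CPM, in CD103+ cells 15.4 and 10.9 CPM, and in CD103- cells 10.4 and 4.84 CPM. The first pair of populations thus lay apart from the other 3, among which ductal macrophages overlapped both CD103+ and CD103- cells, while those 2 did not overlap each other. Retnla alone took 1.72% and 2.33% of all counts in the CD11b+ dendritic cells, and 0.972% and 0.719% in stromal macrophages. On the TPM scale, which corrects for gene length, it was the most abundant gene of the CD11b+ dendritic cells (56100 ± 10100 TPM, SD, n = 2) and ranked 5 in stromal macrophages (23600 ± 4690 TPM, SD, n = 2).

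Retnla was higher in stromal than in ductal macrophages by 9.83 on the log2 scale (SE 0.69, adjusted p = 5.71e-06, edgeR) and higher in CD11b+ than in CD103+ dendritic cells by 10.66 (SE 0.70, adjusted p = 1.33e-05, edgeR). The difference between the 2 high populations was 1.10 in favour of the CD11b+ dendritic cells (SE 0.47) and did not pass (adjusted p = 0.108, edgeR), although their libraries did not overlap. DESeq2 called that difference (adjusted p = 0.0241). No difference among ductal macrophages, CD103+ and CD103- cells passed the test: CD103+ cells exceeded ductal macrophages by 0.28 (SE 0.51) and CD103- cells by 0.81 (SE 0.49, adjusted p = 0.879), and ductal macrophages exceeded CD103- cells by 0.53 (SE 0.52, edgeR).

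Other cells known to make RELM-alpha were checked through marker genes. Of 6 adipocyte markers the summed level was 245 to 258 CPM in stromal macrophages, 3.71 to 10.4 CPM in CD11b+ dendritic cells, 1.82 to 8.89 CPM in ductal macrophages and 15.6 to 63.1 CPM in the CD103+ and CD103- cells. The adipocyte sum was high in 1 of the 2 populations with high Retnla and low in the other, where Lep had no count in either library. The 6 eosinophil markers summed to 17.3 and 6.82 CPM in the CD11b+ libraries. Stromal macrophages, also high in Retnla, had the lowest sums, at 1.27 and 2.14 CPM. Ductal macrophages had 7.29 and 7.38 CPM, CD103+ cells 5.52 and 5.58 CPM, and CD103- cells 3.59 and 3.53 CPM. Mean Siglecf, a marker of this list, was 10.8 CPM in CD11b+ cells, against 0.58 CPM for stromal and 5.17 CPM for ductal macrophages. The last of these differences was not called. Epx was at 0 in all 10 libraries and Prg2 at 0.277 CPM at most. The 7 monocyte markers summed to 5150 to 6660 CPM in stromal macrophages, 1740 to 2360 CPM in CD11b+ dendritic cells, 99.3 to 120 CPM in ductal macrophages and 315 to 846 CPM in the CD103+ and CD103- cells, none of them at 0 in the high pair. The 6 epithelial markers summed to 673 to 1710 CPM in stromal macrophages, 433 to 1080 CPM in CD11b+ dendritic cells, 171 to 299 CPM in ductal macrophages and 304 to 1060 CPM in the CD103+ and CD103- cells. The 5 fibroblast markers summed to 1030 to 1320 CPM in stromal macrophages, 239 to 425 CPM in CD11b+ dendritic cells, 351 to 1030 CPM in ductal macrophages and 295 to 759 CPM in the CD103+ and CD103- cells, and no epithelial or fibroblast marker was at 0 in any library. The part of adipocytes, eosinophils, monocytes, epithelium and fibroblasts in the levels of these genes was not tested.

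Mrc1 (gene ID 17533, chromosome 2, 14229414 to 14332023) encodes the mannose receptor, an endocytic receptor of resident macrophages. It stood at 1190 and 777 CPM in stromal macrophages, 681 and 495 CPM in CD11b+ dendritic cells and 44 and 60 CPM in ductal macrophages. In the CD103+ cells it was 2.46 and 1.46 CPM and in the CD103- cells 2.07 and 2.17 CPM. Ductal macrophages thus took a middle place, with no overlap with the populations above or below. Mrc1 was higher in stromal than in ductal macrophages by 4.24 (SE 0.36, adjusted p = 1.62e-05, edgeR), in CD11b+ dendritic cells than in ductal macrophages by 3.50 (SE 0.35, adjusted p = 4.94e-05, edgeR) and in ductal macrophages than in CD103- cells by 4.61 (SE 0.38, adjusted p = 1.28e-05, edgeR). Stromal macrophages exceeded CD11b+ dendritic cells by 0.74 (SE 0.31), which did not pass (adjusted p = 0.105, edgeR), and CD103+ and CD103- cells were indistinguishable (log2 difference -0.11, SE 0.38).

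Mgl2 (gene ID 216864, chromosome 11, 70130125 to 70137542) and Clec10a (gene ID 17312, chromosome 11, 70166623 to 70170836) are related lectin genes that lie 29080 bases apart, with 0 annotated genes between them. Reads that match both copies could have been divided between them in the authors' counting, so their separate levels are uncertain to that extent. Mgl2 was measured at 762 and 611 CPM in stromal macrophages, 448 and 464 CPM in CD11b+ dendritic cells, 111 and 145 CPM in ductal macrophages, 25.3 and 22.7 CPM in CD103+ cells and 2.28 and 1.36 CPM in CD103- cells. No population overlapped another. Each step down this order passed the test except the first: 0.59 from stromal macrophages to CD11b+ dendritic cells (SE 0.26, adjusted p = 0.126), 1.84 to ductal macrophages (SE 0.27, adjusted p = 0.000708), 2.41 to CD103+ cells (SE 0.28, adjusted p = 0.000134) and 3.75 to CD103- cells (SE 0.32, adjusted p = 0.00128, all edgeR).

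Clec10a was at 583 and 381 CPM in stromal macrophages, 120 and 111 CPM in CD11b+ dendritic cells, 11.2 and 13.8 CPM in ductal macrophages, 6.27 and 7.13 CPM in CD103+ cells and 2.55 and 2.76 CPM in CD103- cells. Populations again did not overlap. Clec10a was higher in stromal macrophages than in CD11b+ dendritic cells by 2.06 (SE 0.26, adjusted p = 0.000236, edgeR) and higher in those than in ductal macrophages by 3.20 (SE 0.28, adjusted p = 2.17e-05, edgeR). Ductal macrophages exceeded CD103+ cells by 0.90 (SE 0.27, adjusted p = 0.0354, edgeR). That call was lost in a fit of these populations alone (adjusted p = 0.0887) and on leaving out either library of the ductal macrophages, of the CD103+ cells or of the CD11b+ dendritic cells (adjusted p 0.0547 to 0.205). The step from CD103+ to CD103- cells, 1.33 (SE 0.28), did not pass (adjusted p = 0.2, edgeR), whereas DESeq2 called it (adjusted p = 0.00453). Per length, Mgl2 and Clec10a were at 638 and 458 TPM in stromal macrophages, 462 and 120 TPM in CD11b+ dendritic cells and 120 and 12.2 TPM in ductal macrophages, so Clec10a was the lower of the pair there, as in CD103+ cells (38.7 and 11 TPM). In CD103- cells, where both were scarce, the order was the other way (2.87 and 4.31 TPM).

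Arg1 (gene ID 11846, chromosome 10, 24915207 to 24927470) had 30 and 44 counts in stromal macrophages, 2 and 9 in ductal macrophages, 54 and 8 in CD11b+ dendritic cells, 33 and 51 in CD103+ cells and 20 and 22 in CD103- cells. Its mean level was between 1.08 ± 0.882 CPM in ductal macrophages and 2.57 ± 1.61 CPM in CD11b+ dendritic cells (SD, n = 2), and neighbours in the order overlapped. It was called in 0 of 10 pairs by edgeR, with 0 at an unadjusted p under 0.05 and 0 by DESeq2. Chil3 (gene ID 12655, chromosome 3, 106147554 to 106167564) had 10 and 0 counts in stromal macrophages, 0 and 3 in ductal macrophages, 1 and 2 in CD11b+ dendritic cells, 0 and 0 in CD103+ cells and 1 and 0 in CD103- cells. No library held more than 10 counts, and no difference was detectable at this depth. Chil4, the near-identical neighbour of Chil3 with which reads could be shared, had 0 counts in all 10 libraries. Stromal macrophages and CD11b+ dendritic cells thus held Retnla among their most abundant messages with Arg1 at 2.12 and 2.73 TPM and Chil3 at 0.233 and 0.219 TPM.

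Il4ra (gene ID 16190, chromosome 7, 125552271 to 125579474) encodes the signalling chain shared by the IL-4 and IL-13 receptors. It was at 525 and 515 CPM in ductal macrophages, 245 and 201 CPM in CD11b+ dendritic cells, 217 and 206 CPM in CD103+ cells, 260 and 130 CPM in CD103- cells and 110 and 120 CPM in stromal macrophages. Ductal macrophages lay above and stromal macrophages below every other library, and the 3 dendritic cell populations overlapped. The CD103- library with the lower Il4ra, replicate 2, was also the library with the most B cell marker RNA (4 markers, 279 CPM against 33.7 CPM in replicate 1), and the part of this in the Il4ra values was not tested.

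Il4ra was lower in stromal than in ductal macrophages, with a log2 difference of -2.18 (SE 0.32, adjusted p = 0.000495, edgeR), opposite to Retnla, Mrc1, Mgl2 and Clec10a. Ductal macrophages also exceeded CD11b+ (1.22, SE 0.31, adjusted p = 0.0152), CD103+ (1.30, SE 0.31, adjusted p = 0.0114) and CD103- dendritic cells (1.42, SE 0.31, adjusted p = 0.00685, all edgeR). The first of these calls was lost without either library of the ductal macrophages or of the CD11b+ cells (adjusted p 0.0603 to 0.127), and the second without ductal replicate 1 or either CD103+ library (adjusted p 0.0586 to 0.0661). Stromal macrophages were lower than CD11b+ dendritic cells (-0.96, SE 0.31, adjusted p = 0.0402) and CD103+ cells (-0.88, SE 0.31, adjusted p = 0.0461, edgeR). Both calls were close to the threshold and were lost on leaving out either library of the stromal macrophages, ductal macrophages, CD11b+ or CD103+ dendritic cells, with adjusted p from 0.0531 to 0.208 for the first and from 0.0664 to 0.139 for the second. The second was also lost when all 10 pairs were adjusted together (adjusted p = 0.0608). The difference from CD103- cells, -0.76 (SE 0.30), did not pass (adjusted p = 0.0739, edgeR), but did without CD103- replicate 2 (-1.18, adjusted p = 0.00996) and by DESeq2 (adjusted p = 0.0344).

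**Figure D2:**
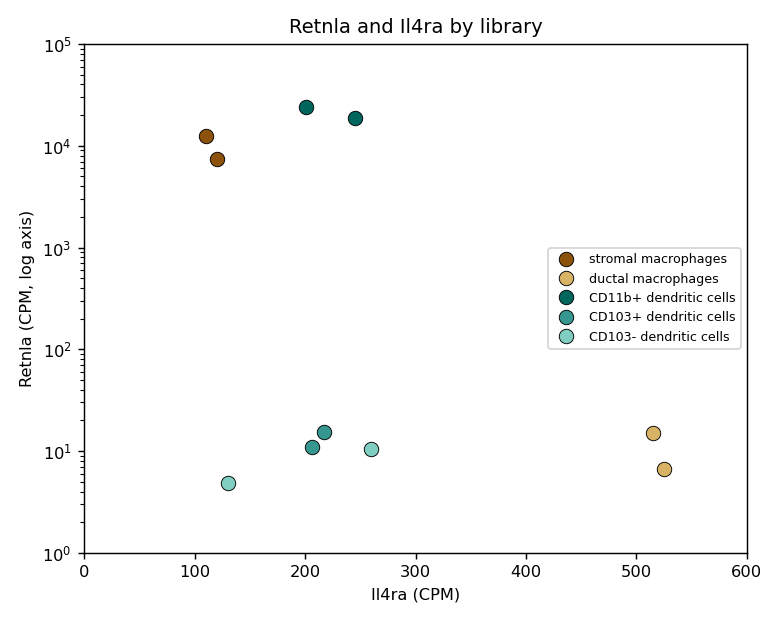
Retnla (CPM, log axis) against Il4ra (CPM, linear axis) in the 10 libraries, coloured by population. The 2 ductal macrophage libraries, at 525 and 515 CPM of Il4ra, have 6.61 and 14.9 CPM of Retnla, while the stromal macrophage libraries, at 110 and 120 CPM of Il4ra, have 12400 and 7470 CPM.

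Counted over pairs of populations, 5 of the 6 tested genes were called between stromal and ductal macrophages, 4 higher in stromal macrophages and Il4ra lower. Of all tested genes 30.6% were called there, 14.3% higher in stromal and 16.3% higher in ductal macrophages. Between CD11b+ dendritic cells and CD103+ cells 4 were called, all higher in CD11b+ cells (20.8% of all genes called, 11.2% higher in CD11b+ and 9.54% higher in CD103+ cells). The same 4, Retnla, Mrc1, Mgl2 and Clec10a, were higher than in CD103- cells (17.5%, of which 9.62% higher in CD11b+ and 7.93% higher in CD103- cells). Stromal macrophages had these 4 genes higher than CD103+ cells, with Il4ra lower, so that 5 were called (33.6% of all genes, 16.0% higher in stromal macrophages and 17.5% higher in CD103+ cells). They had the same 4 higher than CD103- cells (35.3%, 17.0% higher in stromal macrophages and 18.4% higher in CD103- cells). Stromal macrophages and CD11b+ dendritic cells, the 2 populations with high levels, differed in Clec10a and Il4ra (2 called, 26.1% of all genes, 11.6% higher in stromal macrophages and 14.5% higher in CD11b+ cells), and in Clec10a alone without either library of stromal macrophages, ductal macrophages, CD11b+ or CD103+ cells (1 called).

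Ductal macrophages were lower than CD11b+ dendritic cells in 4 genes and higher in Il4ra (5 called, 23.3% of all genes, 11.9% higher in ductal macrophages and 11.4% higher in CD11b+ cells). They were higher than CD103+ cells in Mrc1, Mgl2, Clec10a and Il4ra (4 called, 23.9% of all genes, 12.5% higher in ductal macrophages and 11.4% higher in CD103+ cells), a count that fell to 2 without ductal replicate 1 or either CD103+ library. They were higher than CD103- cells in the same 4 (22.9%, 12.2% higher in ductal macrophages and 10.7% higher in CD103- cells). Between CD103+ and CD103- cells the one member called was Mgl2, among 5 genes called in all (0.0319%), all of them higher in CD103+ cells, and DESeq2 added Clec10a. In total 38 of 60 comparisons of a gene and a pair were called by edgeR, 43 had an unadjusted p under 0.05, and 41 were called by DESeq2. The comparisons share libraries and are not independent of each other. The median log2 difference of the 6 genes was 3.33 between stromal and ductal macrophages, against 0.10 for all tested genes, and 6.71 between CD11b+ and CD103- dendritic cells, against -0.05. The members were chosen with earlier results of these data known, so these medians and counts are a description and no independent test of a shift.

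**Figure D3:**
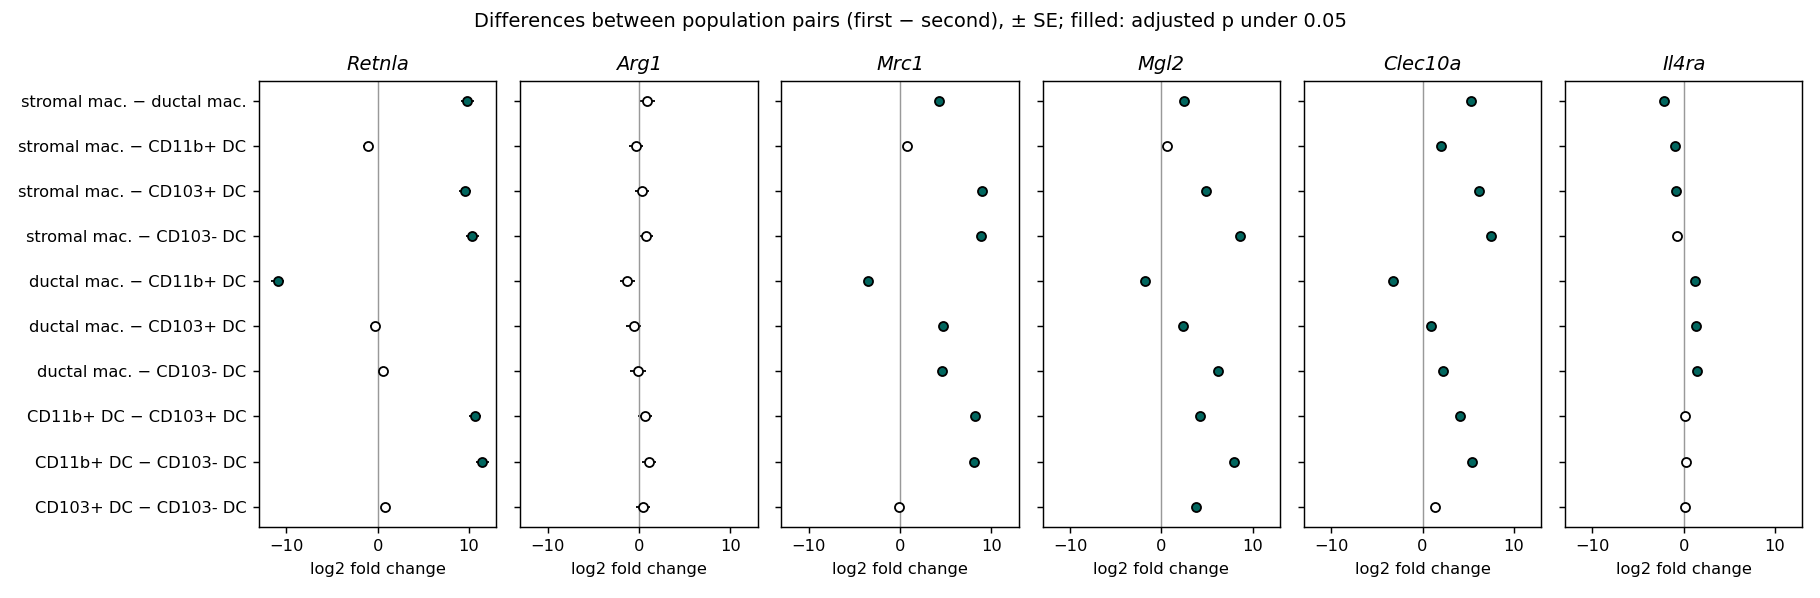
Log2 fold change (first minus second population) ± SE of the 6 tested genes in all 10 pairs, with filled points for an adjusted p under 0.05. Retnla, Mrc1, Mgl2 and Clec10a share their direction in the pairs that set stromal macrophages or CD11b+ dendritic cells against the other 3 populations, Il4ra has the opposite sign between stromal and ductal macrophages at -2.18, and no Arg1 point is filled.

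The ligands and the other receptor chains were looked at next. Il4 itself was present at 7.12 and 3.69 CPM in stromal macrophages (129 and 64 counts) and had 0 counts in ductal macrophages and CD11b+ dendritic cells, so it was at least 17.5-fold higher than in the first and at least 36.3-fold higher than in the second, each against a floor of 3 counts over the group. The call against ductal macrophages (adjusted p = 0.0109, edgeR) was lost without ductal replicate 1 (0.0626) or replicate 2 (0.0596). Mast cell genes moved with it: Cpa3, a mast cell protease, was at 39.1 and 12.2 CPM in the same stromal libraries, and Tpsb2, a mast cell tryptase, at 37.7 and 19.4 CPM, against 0 to 0.946 and 0 to 1.51 CPM in ductal macrophages and CD11b+ dendritic cells, while the basophil protease Mcpt8 was at 0 in all 10. The summed level of the 6 mast cell and basophil markers was 123 to 136 CPM in stromal macrophages, 28.4 to 33.9 CPM in ductal macrophages, 19.1 to 38.1 CPM in CD11b+ cells and 174 to 248 CPM in the CD103+ and CD103- cells. In the CD103+ and CD103- cells nearly all of this sum was Kit, a growth factor receptor gene (172 to 248 CPM), with Cpa3 at 0 to 2.9 CPM and Tpsb2 at 0 to 3.3 CPM. The part of mast cells in the Il4 counts was not tested. Il13 and the decoy receptor gene Il13ra2 had 0 counts in every library. Of the 4 ligand and receptor genes tested, 1 was higher (Il4) and 3 were lower (Il4ra, Il13ra1 and Il2rg) in stromal than in ductal macrophages.

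Il13ra1, which pairs with the alpha chain to bind both cytokines, followed Il4ra between the macrophages, at 143 and 72.5 CPM in stromal and 372 and 297 CPM in ductal macrophages (log2 difference -1.64, SE 0.35, adjusted p = 0.00532, edgeR). Il2rg, the common gamma chain, was at 50.5 and 53.7 CPM in stromal and 591 and 309 CPM in ductal macrophages (-3.11, SE 0.32, adjusted p = 4.46e-05, edgeR). All 3 receptor chains were therefore higher in the macrophage population with the lower levels of Retnla. Stat6 was less spread, with means from 187 CPM in CD11b+ dendritic cells to 296 CPM in ductal macrophages. Its difference between stromal and ductal macrophages, -0.64 (SE 0.22, adjusted p = 0.048, edgeR), was lost on leaving out any 1 of the 10 libraries (adjusted p 0.0581 to 0.296), without the filter on low counts (0.0929), in a fit of these populations alone (0.0716) and with all pairs adjusted together (0.0593). Of the 12 genes of receptor signalling, 6 were lower and 0 higher in stromal than in ductal macrophages (median -0.60), where 16.3% of all tested genes were lower and 14.3% higher. These shares, and for CD11b+ against CD103- cells 9.62% higher and 7.93% lower, also stand beside the list counts that follow. Among the 6 were the kinases Jak2 (27.5 against 119 CPM) and Tyk2 (25.4 against 90.2 CPM) and the adaptor Irs2 (79.4 against 414 CPM). Between CD11b+ and CD103- dendritic cells, 2 were higher and 1 lower in the CD11b+ cells by edgeR, where DESeq2 called 5 in all, and the STAT-induced inhibitor Cish was at 137 against 25.5 CPM.

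**Figure D4:**
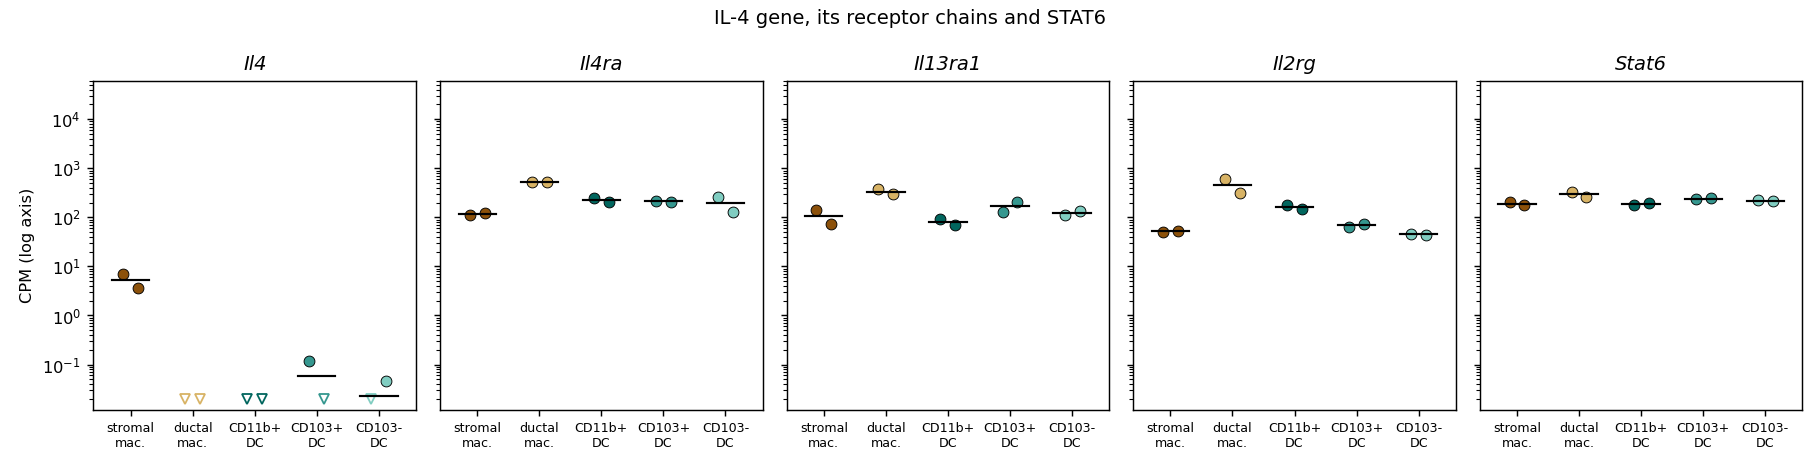
CPM (log axis) of Il4, the receptor chains Il4ra, Il13ra1 and Il2rg, and Stat6 in each library, with points for libraries, bars for population means and open triangles for no count. Il4 stands above 1 CPM only in stromal macrophages, and the receptor chains are highest in ductal macrophages.

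Of 11 transcription factors and cofactors linked to alternative activation, 4 were higher and 1 lower in stromal than in ductal macrophages (3 called in all without ductal replicate 2), with a list median of 0.06. Maf, a macrophage maturation factor, was at 153 against 6.72 CPM (4.49, SE 0.41, adjusted p = 2.37e-05, edgeR) and Klf4, which cooperates with STAT6, at 249 against 34.6 CPM (2.85, SE 0.32, adjusted p = 8.12e-05, edgeR). Irf4, which is needed for part of the IL-4 response, was at 31.4 against 4.95 CPM (2.68, SE 0.66, adjusted p = 0.011, edgeR, and 0.0986 without ductal replicate 2). In CD11b+ against CD103- dendritic cells 7 of the 11 were higher and 0 lower (4 called without CD11b+ replicate 1), with a list median of 1.70. Cebpb, whose protein binds C/EBP-type sites, was at 2690 against 255 CPM (3.40, SE 0.38, adjusted p = 0.000181, edgeR) and Irf4 at 72.3 against 8.13 CPM (3.14, SE 0.62, adjusted p = 0.00583, and 0.0503 without CD11b+ replicate 1).

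Other genes that IL-4 raises in mouse macrophages did not move as 1 block between the macrophages: of 21, 5 were higher and 6 lower in stromal cells, with a median of 0.03. Ccl24, an eosinophil chemoattractant, was at 435 and 298 CPM in stromal and 0.228 and 0 CPM in ductal macrophages (11.68, SE 0.80, adjusted p = 5e-06, edgeR), while Il1rn, the interleukin-1 receptor antagonist, was lower in stromal macrophages (68.9 against 444 CPM, -2.69, SE 0.48, adjusted p = 0.00176, edgeR) and Ccl22, a lymphocyte chemoattractant, was at 1.6 and 0 CPM in stromal and 45.8 and 37.6 CPM in ductal macrophages. In CD11b+ against CD103- dendritic cells 8 were higher and 1 lower (median 0.74). Ear2, an eosinophil-associated ribonuclease gene with close copies among which reads could be divided, was at 2270 and 2430 CPM in CD11b+ dendritic cells and 9.94 and 11.7 CPM in CD103- cells (7.76, SE 0.46, adjusted p = 6.03e-06, edgeR), and at 11.2 and 6.81 CPM in stromal macrophages. Ccl24 was at 53.2 against 0.195 CPM (8.23, SE 0.64, adjusted p = 2.24e-05, edgeR) and Il1rn at 1470 against 2.95 CPM (8.94, SE 0.64, adjusted p = 1.64e-05, edgeR).

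The family relatives of the 7 genes gave a mixed record. Retnla lies between Retnlb and Retnlg in a cluster of 57643 bases on chromosome 16. Retnlg was present in the same populations as Retnla at a far lower level, at 23 and 30.3 CPM in CD11b+ dendritic cells and 10.3 and 7.39 CPM in stromal macrophages, and had 0 counts in ductal macrophages, so it was at least 86.1-fold and at least 28.6-fold higher there, respectively. Retnlb had 0 counts in 9 of 10 libraries and 0.344 CPM in CD11b+ replicate 1. Retn, the adipocyte hormone resistin, was at 20.5 and 21.9 CPM in stromal macrophages and at 0.138 and 0.359 CPM in CD11b+ dendritic cells. Retn is itself among the 6 adipocyte markers summed above. Of the RELM and chitinase-like families, 4 of 9 genes passed the filter, Retnla included, and 3 were higher and 0 lower in stromal than in ductal macrophages.

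Chil1, another chitinase-like gene, ranged from 6.25 CPM in CD103- cells to 21.2 CPM in stromal macrophages and did not pass between the macrophages. Among the mannose receptor and lectin families, with Mrc1, Mgl2 and Clec10a among the 7 tested, 4 were higher and 1 lower in stromal than in ductal macrophages. The fourth was Asgr2, an asialoglycoprotein receptor chain, at 16.6 and 12.8 against 2.96 and 3.03 CPM (2.29, SE 0.49, adjusted p = 0.00549, edgeR). Ly75, the DEC-205 receptor of dendritic cells, went the other way, with 0 and 0 CPM in stromal and 0.911 and 1.51 CPM in ductal macrophages and 62.3 and 112 CPM in CD103+ cells. The ductal values lay near the floor, as 3 counts were worth 0.683 and 0.567 CPM in those libraries. Mrc2 did not exceed 6.24 CPM, nor Asgr1 0.207 CPM, in any library.

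**Figure D5:**
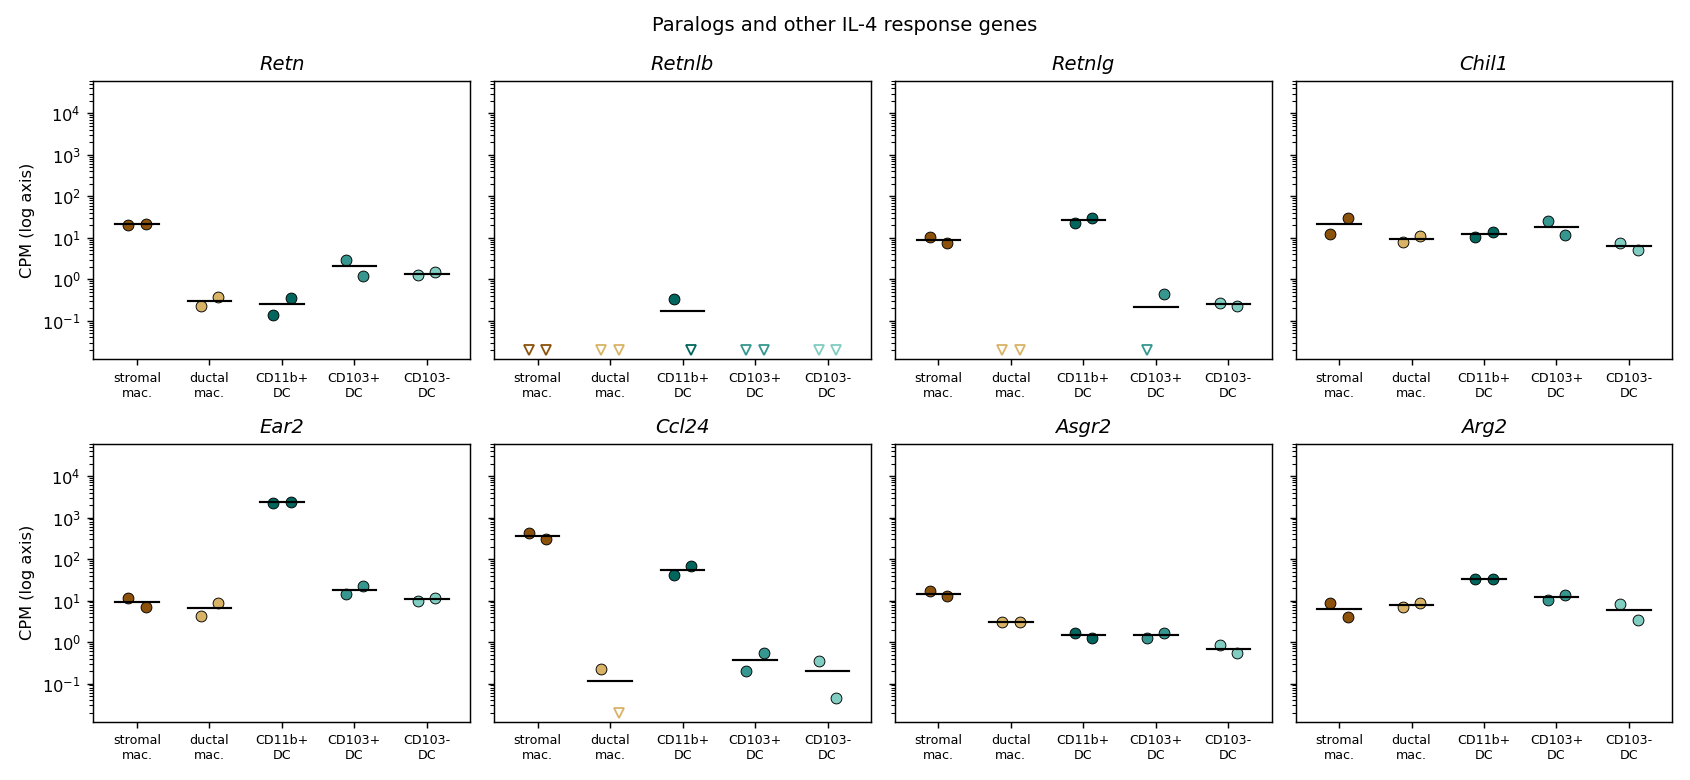
CPM (log axis) of family relatives and other IL-4 response genes in each library, with points for libraries, bars for population means and open triangles for no count. Retnlg and Ccl24 are highest in the 2 populations with high Retnla, Ear2 is high only in CD11b+ dendritic cells at 2270 and 2430 CPM, and Retn is highest in stromal macrophages.

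In arginine and polyamine metabolism, Arg1 included, 0 of 12 tested genes were higher and 4 lower in stromal than in ductal macrophages. Of all tested genes, 14.3% were higher and 16.3% lower there. The 4 were close in share to the 30.6% of all genes called in either direction, but all lay in the same direction. Among them were the arginine transporter gene Slc7a1 (8.46 against 27.5 CPM) and the argininosuccinate lyase gene Asl (24.5 against 72.4 CPM). Arg2, the mitochondrial arginase, was at 32.3 and 33.6 CPM in CD11b+ dendritic cells and 8.15 and 3.35 CPM in CD103- cells (2.53, SE 0.48, adjusted p = 0.00473, edgeR). Between these populations 1 gene of the list was higher and 1 lower (1 called without CD11b+ replicate 2), again close in share to the 17.5% of all genes called. Of 15 tested genes of classical activation, the state driven by interferon-gamma and bacterial products, 1 was higher and 8 lower in stromal than in ductal macrophages (median -1.23). Il1b was at 14.6 against 1770 CPM (-6.92, SE 0.48, adjusted p = 5.48e-06, edgeR), Ptgs2 at 12.7 against 181 CPM (-3.84, SE 0.45, adjusted p = 0.000116, edgeR), and Il12b had no counts in stromal macrophages against 32.6 and 61.7 CPM in ductal macrophages. In CD11b+ against CD103- dendritic cells 6 were higher and 4 lower (6 called without CD11b+ replicate 1), so the classical list had no single direction there.

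Patterns across the 10 libraries were compared by the correlation of log2 CPM, as a description, since libraries of 1 population share their cells and depth. Among the members, r was 0.941 between Mrc1 and Clec10a, 0.924 between Retnla and Clec10a, 0.916 between Mrc1 and Mgl2, 0.902 between Mgl2 and Clec10a, 0.886 between Retnla and Mrc1 and 0.796 between Retnla and Mgl2. With Il4ra it was -0.457 for Retnla, -0.422 for Clec10a, -0.175 for Mrc1 and -0.033 for Mgl2. Of 7042 other genes with a population mean of at least 30 CPM, those most like Retnla were Ccl2, a monocyte chemoattractant (r = 0.996, with 886 CPM in stromal macrophages, 949 CPM in CD11b+ dendritic cells and 18 CPM in ductal macrophages), Lpar1 (0.992) and Sde2 (0.99). Those most like Mrc1 were Ccl9 (0.985), Tec (0.984) and Wfdc17 (0.983), those most like Mgl2 were Gch1 (0.965), Pros1 (0.964) and Tmem159 (0.961), and those most like Clec10a were Fkbp1a (0.987), Cd5l (0.987) and Ube2r2 (0.983). Il4ra was closest to Gramd1a (0.978), Ncstn (0.975) and Nucb1 (0.968), each highest in ductal macrophages. The scarce Arg1 reached only 0.864, with Cox17 and Klhl5.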

How the data were processed

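RNA-seq was made from 10 libraries, 2 per population. Per the submitters' processing notes, the authors assigned reads to genes with featureCounts on mm10, and the deposited values are raw counts per gene (strandedness, aligner and annotation: not given in the sources used here). Gene IDs were named from RefSeq (25275) or GENCODE (18), and 1886 of 27179 had no name. Counts were fitted in edgeR 4.0.16 (R 4.3.3) over all 5 populations: filterByExpr (minimum count 10, minimum total 15), TMM, quasi-likelihood test with 5 residual degrees of freedom, Benjamini-Hochberg adjustment within each of 10 pairs. The script was tested on simulated data. DESeq2 1.42.0 was an alternative, beside other scaling, no filter, no mitochondrial genes, fits of 2 populations, joint adjustment, a replicate block and leaving out each library. SE was derived as the size of the log2 fold change divided by the root of the F statistic. TPM used the deposited gene lengths. Floors of 3 counts cover counting error only.

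Genes named are all members, the ligand and receptor genes with Stat6, the members' closest paralogs, and up to 4 genes per list with the widest range of population means (at least 30 CPM). For each tested member the 3 genes of highest correlation are named. Members and lists were chosen with earlier results of these data known. The p-values measure the spread between libraries that the labels call biological replicates.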

Additional observations from a re-analysis of the deposited data

How the results depend on the processing

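All 38 calls were kept with RLE size factors, without the filter, without mitochondrial genes and by DESeq2, and these scalings moved the median of all genes by at most 0.07 in size (log2). The deviations of same-numbered libraries correlated at 0.102 to 0.126 among stromal macrophages, ductal macrophages and CD11b+ cells and at 0.177 between CD103+ and CD103- cells, but at -0.176 to -0.124 between these 2 sets. Values this small, from 2 libraries per population, cannot decide whether same-numbered libraries share mice or a sort. The replicate numbers were not taken as pairs in the reported fit. With the replicate block 36 of the 38 calls were kept; those of Il4ra between stromal macrophages and CD103+ cells (adjusted p = 0.0526) and of Clec10a between ductal macrophages and CD103+ cells (0.0517) were lost, and 3 genes were called between CD103+ and CD103- cells.

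Counts of all genes called moved most between CD103+ and CD103- cells: 5 in the reported fit, 150 with no filter, 340 with all pairs adjusted together and 151 by DESeq2 (80.1% of them higher in CD103+ cells, against 100%), and under these 3 settings 2 members were called there in place of 1. The stromal and CD103- populations fitted alone gave 3430 genes. DESeq2 called 5 receptor signalling genes between CD11b+ and CD103- cells.

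Leaving out 1 library, where the lone library of a population is assumed to vary like the other groups, counts of genes called ranged from 2536 (without ductal replicate 1) to 4742 between stromal and ductal macrophages, from 2054 to 4007 for stromal macrophages and CD11b+ cells (lowest without CD11b+ replicate 1; 2210 without replicate 2), from 3244 to 5300 for stromal macrophages and CD103+ cells (lowest without CD103+ replicate 2; 3316 without replicate 1), from 1740 to 4173 for ductal macrophages and CD11b+ cells (lowest without ductal replicate 1), from 1714 to 4444 for ductal macrophages and CD103+ cells and from 1914 to 4227 for ductal macrophages and CD103- cells (both lowest without ductal replicate 1), from 1423 to 3939 for CD11b+ and CD103+ cells and from 1222 to 3370 for CD11b+ and CD103- cells (both lowest without CD11b+ replicate 2), and from 2 to 18 for CD103+ and CD103- cells. Members called ranged from 1 to 2 between stromal macrophages and CD11b+ cells and from 2 to 4 between ductal macrophages and CD103+ cells. List counts ranged from 3 to 5 for the transcription factors between macrophages, and, for CD11b+ against CD103- cells, from 4 to 8 for these factors, 1 to 2 for arginine metabolism and 6 to 10 for classical activation.

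Directions that changed all belonged to differences that were not called, each when 1 library was left out. Arg1 ranged from -0.82 to 0.54 for stromal macrophages minus CD11b+ cells, from -0.01 to 0.67 for stromal macrophages minus CD103+ cells, from -1.86 to 0.03 for ductal macrophages minus CD103+ cells, from -1.37 to 0.52 for ductal macrophages minus CD103- cells and from -0.22 to 1.16 for CD11b+ minus CD103+ cells. Retnla ranged from -1 to 0.18 for ductal macrophages minus CD103+ cells and from -0.19 to 1.16 for ductal macrophages minus CD103- cells. Il4ra ranged from -0.08 to 0.22 for CD11b+ minus CD103+, from -0.22 to 0.78 for CD11b+ minus CD103- and from -0.3 to 0.71 for CD103+ minus CD103- cells, and Mrc1 from -0.53 to 0.21 for CD103+ minus CD103- cells. The cause was not tested. With 2 libraries per population, and 3 counts worth up to 0.683 CPM, differences in Chil3 were not detectable at this depth. Arg1 was tested in 10 pairs and called in 0 by edgeR, with SE from 0.75 to 0.84, so small differences could have been missed.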
